A study of Mus musculus with 6 samples.

Results

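The proteasome subunit genes were described in transferred T cells with and without CTLA-4. They were 36 genes taken by name, namely the subunits of the core, of its regulatory particle and of its activators. A gene was read from probe sets that the array annotation maps to it alone, and where a gene had several the one of highest mean over 6 arrays was kept. In this way 35 of the 36 genes were measured, among 18193 genes on the array, and all 35 were bright enough to be tested beside 11989 genes in all. Psme2 was not measured, because its 1 probe set is annotated to a further gene. The cells were 5C.C7 T cells, all of which have the same transgenic receptor, specific for moth cytochrome c (MCC), and their RNA was read on Affymetrix arrays. The wild-type group was 5C.C7 RAG2-/- CD45.1 cells, and the CTLA-4 KO group was 5C.C7 RAG2-/- CD45.1 CTLA-4-/- cells, so that both lacked RAG2, which is needed to rearrange receptor genes. Both were put into B10.A mice, an inbred strain with lymphocytes of its own, the recipients were immunized with MCC peptide and LPS, and the donor cells were sorted on day 4, with 3 arrays per genotype. The labels give no age and no gate for the sort.

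The proteasome is the main protease of the cytosol and nucleus. Its core is a barrel of stacked rings, with an outer ring of alpha subunits that gates the entrance and an inner ring of beta subunits, of which Psmb5, Psmb6 and Psmb7 cut peptide bonds. The regulatory particle caps the barrel, binds ubiquitin chains, removes them and threads the substrate in with a ring of ATPases. Interferons induce Psmb8, Psmb9 and Psmb10, which take the places of Psmb5, Psmb6 and Psmb7 in newly built cores, and the activator subunits Psme1 and Psme2. This form is called the immunoproteasome, is abundant in lymphocytes, and shapes the peptides shown on MHC class I.

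Ctla4, the targeted gene, read 5332, 4787 and 4587 in wild type against 812, 791 and 784 in CTLA-4 KO, with no overlap (log2 difference −2.60 ± 0.10 SE, limma adjusted p = 1.45e-06). The position of its probe set relative to the deletion was not determined. The T cell markers with a probe set, 6 of 7, had summed intensities of 47225 to 55173 in wild type against 48924 to 50674 in CTLA-4 KO. Among them Cd3g, a chain of the T cell receptor complex, read 7162, 7886 and 9014 in wild type against 6083, 6367 and 6331 in CTLA-4 KO, lower without overlap and called with the replicate block (log2 difference −0.35 ± 0.10, limma adjusted p = 0.122, 0.0290 with the block). The summed B cell markers (5 of 6) had 224 to 379 in wild type against 163 to 280.1 in CTLA-4 KO, and the myeloid and dendritic cell markers (9 of 9) had 503 to 635 in wild type against 448 to 709.7 in CTLA-4 KO. The sums overlapped in both lists, and the means of single B cell and myeloid markers lay between 5.27 and 132. Cd68, a macrophage marker, read 93.3, 98.7 and 57.3 in wild type against 133, 125 and 138 in CTLA-4 KO, higher in CTLA-4 KO without overlap (limma adjusted p = 0.244, 0.126 with the replicate block). Itgax and Pax5 were lower without overlap, Itgax not called (−0.32 ± 0.23) and Pax5 too dim to be tested. The part of these markers in the results was not tested. The CD8 markers summed to 262 to 422 in wild type against 315 to 513 in CTLA-4 KO, the NK cell markers to 214 to 667 in wild type against 286 to 449 in CTLA-4 KO and the 1 measured erythroid marker read 3.92 to 11.7 in wild type against 5.65 to 19.9 in CTLA-4 KO, again with overlap. The 3 plasma cell markers summed to 6148 to 6571 in wild type against 7323 to 8166 in CTLA-4 KO. Nearly all of this was Xbp1, which T cells express too, with 6529, 6005 and 6162 in wild type against 7681, 7264 and 8069 in CTLA-4 KO (adjusted p = 0.0465 with the replicate block), while Sdc1 and Jchain stayed at or under 125 in each array. The ratio of 5' to 3' signal of Actb, a sign of RNA integrity, was 0.418, 0.410 and 0.584 in wild type against 0.567, 0.691 and 0.544 in CTLA-4 KO. The part of Xbp1-expressing cells and of this ratio in the results was not tested, apart from the fit with the ratio as a term. Precision is limited by having 3 arrays a genotype. The titles call them biological replicates without naming animals. The p-values thus measure only how far these samples spread, and that may be partly technical. Xist, read as a sign of donor sex, was high in replicate 2 of each genotype and in no other array. Replicates of a genotype were thus not all from the same donors. Whether replicates 1 and 3 shared donors is not known. In bulk RNA, fewer cells of a type and less RNA per cell cannot be told apart.

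Every measured subunit had a slightly higher mean in CTLA-4 KO cells. All 35 of 35 log2 differences were positive, from 0.0079 for Psmb8 to 0.40 for Psmd4, with a median of 0.19, while under quantile normalization 34 were positive and Psmb8 turned to −0.042. Without wild type replicate 1, 31 of 35 were positive, against 47.3% of all genes. A positive difference means a higher level in CTLA-4 KO, on the scale log2(intensity + 16). Over all genes tested, 50.2% had a positive difference and the median was 0.0015. Among the 5865 genes at least as bright as the dimmest subunit it was 56.9%, with a median of 0.032. These genes share only a lower limit with the subunits, a mean of 601, and were not matched to their brightness. The median intensity of an array was 68.0, 69.5 and 75.2 in wild type against 62.1, 63.7 and 71.5 in CTLA-4 KO. Under quantile normalization the median was 0.15 for the subunits and 0.023 for all genes. The part of brightness in the differences was not tested. The differences were small, since the largest is a 1.32-fold level.

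None of the 35 passed an adjusted p of 0.05 in the limma fit (lowest adjusted p = 0.0699, for Psmc2), where 1.69% of genes were called, 1.19% as higher. Among the bright genes these shares were 2.4% and 1.59%. At an unadjusted limma p under 0.05 there were 12, all higher, where 9.44% of genes and 12.2% of the bright ones were called higher. The titles do not say what a wild-type and a CTLA-4 KO array of the same replicate number have in common. They were treated as a pair only because their deviations from the genotype means correlated, at 0.37, 0.24 and 0.25. Arrays of the same number also had the same reading of Xist, high in replicate 2 of each genotype and not in replicates 1 and 3. The part of donor sex in these correlations was not tested. With replicate number as a block 5 of 35 were called, all higher: Psmb7, Psmc2, Psmc5, Psmd4 and Psmd13. These calls depend on that assumed pairing. The blocked fit called 8.96% of genes, 5.49% as higher and 3.47% as lower. Of the bright genes it called 12.1%, 7.21% as higher and 4.89% as lower. At an unadjusted limma p under 0.05 it called 16 of 35, all higher, against 13.0% of genes and 17.5% of the bright ones. The intensities of the genotypes did not overlap for 20 of 35 subunits, all higher in CTLA-4 KO, against 12.2% of all genes and 16.1% of the bright ones. None lay fully lower, against 10.6% and 11.4%. In 27 of 35 the CTLA-4 KO array was the higher one in every pair, against 23.3% and 29.8% of genes. With a term for the Actb ratio, 30 of 35 differences were positive, with a median of 0.21 and no call. Over all genes that fit had 48.7% positive and a median of −0.0097, and it called 0.0334% as higher.

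**Figure D1:**
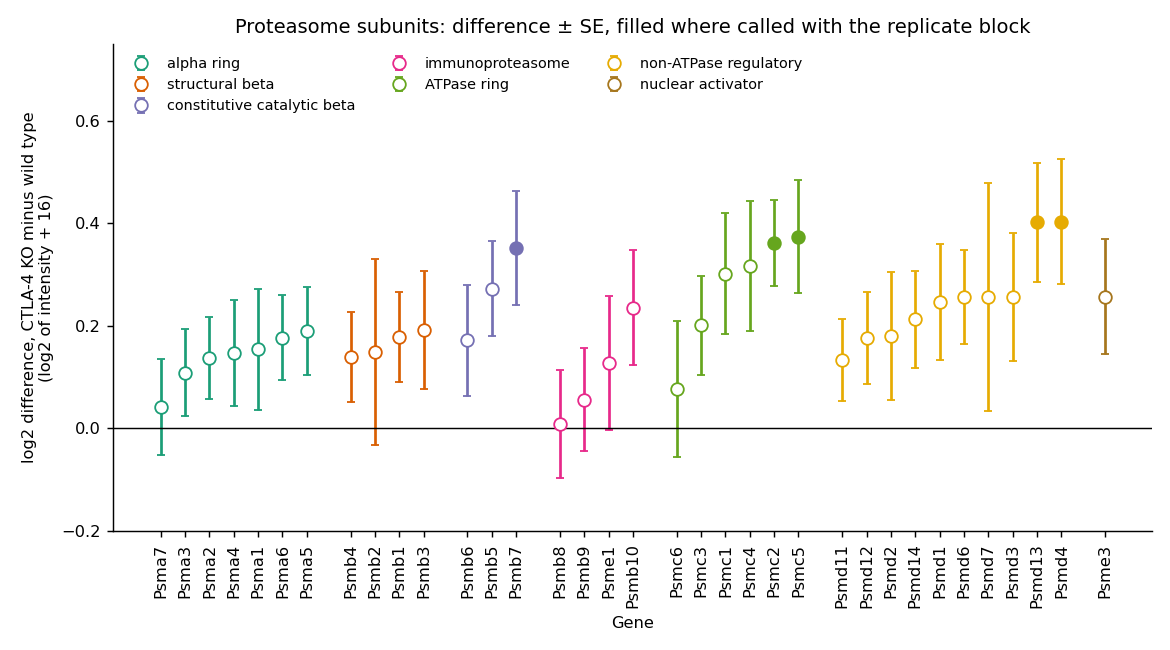
Log2 difference between CTLA-4 KO and wild type of each of the 35 subunit genes, grouped by place in the complex, with the standard error of the limma fit as bars (n = 3 arrays per genotype). All points lie above 0 (Psmb8 turns negative under quantile normalization), and the 5 filled points (Psmb7, Psmc2, Psmc5, Psmd13 and Psmd4) were called with the replicate block.

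**Figure D2:**
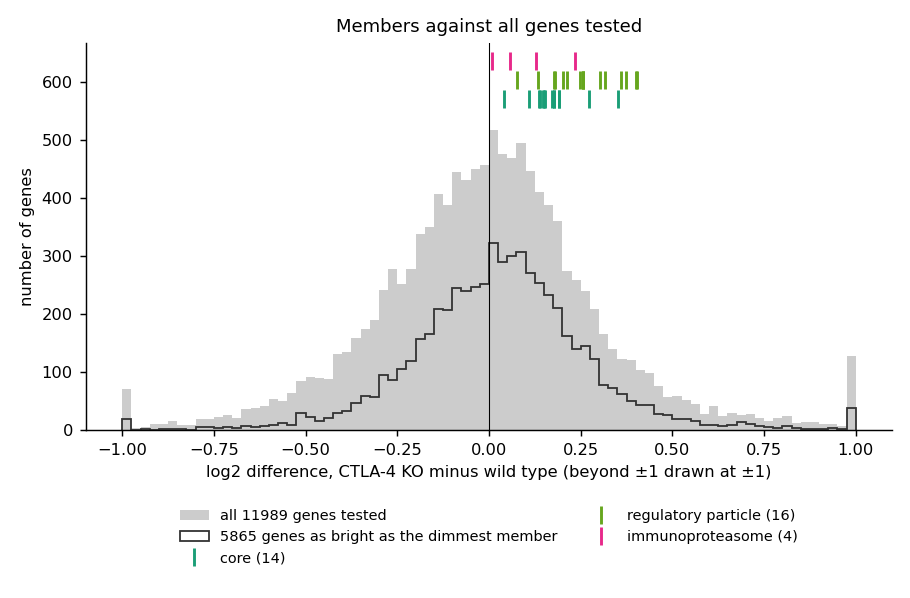
Number of genes at each log2 difference for all 11989 genes tested (grey) and for the 5865 genes at least as bright as the dimmest subunit (outline), with the subunits of each part of the complex as ticks above. The ticks lie at 0 and above, inside the bulk of the genes.

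Averaged over the complex, the 3 CTLA-4 KO arrays stood at like levels. Over the 35 subunits and set relative to the wild-type mean, the log2 level was −0.0044, 0.011 and −0.0066 in the wild-type arrays and 0.21, 0.22 and 0.19 in the CTLA-4 KO arrays. Among the bright genes the same means were −0.013, 0.027 and −0.013 and 0.028, 0.045 and 0.023. The core had a median log2 difference of 0.16 over 14 genes, the regulatory particle 0.26 over 16 and the immunoproteasome 0.092 over its 4 measured genes. The order of these medians is a description of the members, and the difference between the parts was not tested. Without overlap between genotypes were 7 of 14 core genes, 12 of 16 of the regulatory particle and 0 of 4 of the immunoproteasome, where 12.2% of all genes and 16.1% of the bright ones were higher without overlap. At the shares of all genes and bright genes, a count of 0 among 4 does not set the immunoproteasome apart from genes in general. Against the core and the regulatory particle this count was not tested.

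**Figure D3:**
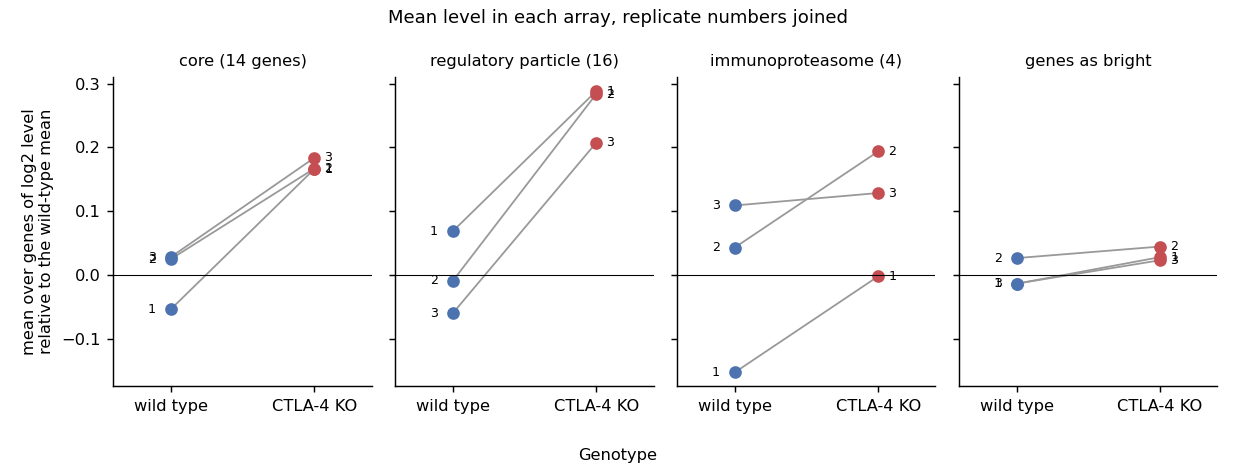
Mean over genes of the log2 level relative to the wild-type mean, in each of the 6 arrays, for the core, the regulatory particle, the immunoproteasome and the 5865 genes as bright. Lines join arrays with the same replicate number. In the core and the regulatory particle each CTLA-4 KO array lies above each wild-type array, and in the immunoproteasome the genotypes overlap.

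The alpha ring, which forms the outer rings and the gate of the barrel, had small differences throughout. Its 7 log2 differences ran from 0.042 to 0.19 with a median of 0.15. Psma5 had the largest of them, with 10549, 10744 and 9498 in wild type against 12284, 11231 and 11598 in CTLA-4 KO. Its groups did not overlap, with a difference of 0.19 ± 0.086 (log2, SE, limma adjusted p = 0.320, 0.209 with the replicate block). Psma7 had the smallest, with 4738, 4958 and 4756 in wild type against 4907, 5405 and 4597 in CTLA-4 KO, and its genotypes overlapped, as the lowest array was a CTLA-4 KO one (log2 difference 0.042 ± 0.094, adjusted p = 0.872). Psma6 went from 15796 ± 783 to 17868 ± 1178 (mean ± SD of 3 arrays, difference 0.18 ± 0.083), Psma2 from 9206 ± 372 to 10119 ± 159 (0.14 ± 0.080) and Psma3 from 12664 ± 402 to 13676 ± 1024 (0.11 ± 0.084), each without overlap. Psma1 (0.15 ± 0.12) and Psma4 (0.15 ± 0.10) did overlap. Of the 7 genes none was called in either fit.

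The structural beta subunits Psmb1, Psmb2, Psmb3 and Psmb4, which build the inner rings without cutting, had differences between 0.14 and 0.19. Psmb3, the highest, read 3507, 4568 and 3871 in wild type against 4543, 4197 and 4849.9 in CTLA-4 KO, with wild type replicate 2 above CTLA-4 KO replicates 1 and 2. Psmb4, the lowest, read 13046, 13722 and 14285 in wild type against 13959, 14912 and 16434 in CTLA-4 KO. Its genotypes overlapped by 1 array, as wild type replicate 3 lay above CTLA-4 KO replicate 1. Of the 4 genes only Psmb1 had no overlap (from 6151 ± 267 to 6963 ± 350.2, difference 0.18 ± 0.087). Psmb2 went from 755 ± 214 to 818 ± 28.2 with overlap and the largest relative spread of the 4, 0.15 ± 0.18. None of the 4 was called with or without the block.

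The constitutive catalytic subunits held the 2 largest differences of the core, those of Psmb7 and Psmb5. Psmb7, which cuts after basic residues, read 1871, 1889 and 2203 in wild type against 2333, 2691 and 2593 in CTLA-4 KO. All CTLA-4 KO arrays lay above all wild-type arrays, the log2 difference was 0.35 ± 0.11 SE, and the limma adjusted p was 0.160 without and 0.0357 with the replicate block. With a term for the Actb ratio the difference of Psmb7 was 0.21. For the other subunits called with the block it was 0.27 (Psmc5), 0.37 (Psmc2), 0.37 (Psmd4) and 0.51 (Psmd13), none of them called in that fit. Psmb5, the chymotrypsin-like subunit and the main target of bortezomib, read 4986, 5497 and 4689.5 in wild type against 6229, 6051 and 6022 in CTLA-4 KO, again with no overlap. Its log2 difference of 0.27 ± 0.092 was not called (adjusted p = 0.190, 0.0742 with the block). Psmb6, the caspase-like subunit, read 3248, 3859 and 3359.9 in wild type against 4189, 4038 and 3563 in CTLA-4 KO. Here wild type replicate 2 lay above CTLA-4 KO replicate 3, and the difference was 0.17 ± 0.11 (adjusted p = 0.487).

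The ATPase ring of the regulatory particle, Psmc1 to Psmc6, unfolds substrates and opens the gate of the core. Its median difference was 0.31, and 4 of 6 genes had no overlap (all genes 12.2%, bright genes 16.1%). Psmc5 read 1194, 1209 and 1372 in wild type against 1567, 1679 and 1651 in CTLA-4 KO. Every CTLA-4 KO array was above the highest wild-type array, with a log2 difference of 0.37 ± 0.11 SE (limma adjusted p = 0.133 without and 0.0309 with the replicate block). Psmc2 read 10393, 11641 and 10964 in wild type against 13380.1, 14185 and 14819 in CTLA-4 KO. Its genotypes did not overlap, and the log2 difference was 0.36 ± 0.084 (adjusted p = 0.0699, the lowest of the subunits without the block, and 0.0209 with it). The name of this probe set ends in _x_at, a mark for possible cross-hybridisation. On the second bright probe set of Psmc2, without that mark, the difference was 0.29 (limma adjusted p = 0.205, 0.0623 with the block), not called. Averaged over the 3 kept probe sets of Psmc2 it was 0.20. Psmc6 was the exception in the ring, with 3595, 2772 and 2729 in wild type against 3559.8, 3160.0 and 2839.6 in CTLA-4 KO. Wild type replicate 1 was its highest array, and the difference was 0.077 ± 0.13 (adjusted p = 0.825). Psmc1 went from 2432 ± 305 to 2991 ± 227 (0.30 ± 0.12, adjusted p = 0.0650 with the block) and Psmc3 from 4613 ± 406 to 5293 ± 214 (0.20 ± 0.10), both without overlap. Psmc4 went from 7196 ± 1146 to 8932 ± 1029 with overlap (0.32 ± 0.13, adjusted p = 0.262).

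The non-ATPase subunits bind, edit and position the ubiquitin chain. Of 10 measured, 10 had a positive difference in each of the 3 pairs, with a median of 0.25, and 8 had no overlap. Over all genes these shares were 23.3% and 12.2%, and over the bright ones 29.8% and 16.1%. Psmd4, a receptor that binds ubiquitin chains, read 2348, 3134 and 2754 in wild type against 3848, 3696 and 3310.1 in CTLA-4 KO. All CTLA-4 KO arrays were higher, the log2 difference was 0.40 ± 0.12 SE, and the limma adjusted p was 0.143 without and 0.0325 with the replicate block. Averaged over its 3 kept probe sets the difference was 0.022, as the others read 0.22 and −0.56. Psmd13, a scaffold subunit of the lid, read 1743, 1692 and 1403 in wild type against 2198, 2178 and 2006 in CTLA-4 KO. Its difference was 0.40 ± 0.12, again without overlap (adjusted p = 0.129, 0.0189 with the block). Averaged over its 4 kept probe sets it was 0.23. On the brightest of those without an _x_at, _s_at or _a_at ending to the name it was 0.16, and that probe set was dim (wild-type mean 124). Psmd11, another lid subunit, had the smallest difference of the group, 0.13 ± 0.079, with 9237, 9078 and 8651 in wild type against 10022, 9654 and 9895 in CTLA-4 KO. Its genotypes did not overlap either, since the arrays of a genotype lay close together. Psmd14, the deubiquitinase that cuts the chain off the substrate, went from 7010.0 ± 506 to 8129 ± 586 without overlap, and Psmd2, a large scaffold subunit, from 5502 ± 916 to 6182 ± 395 with overlap, neither of them called. Psmd7, the catalytically inactive partner of Psmd14, read 721, 432 and 489 in wild type against 844, 617 and 505 in CTLA-4 KO and overlapped (0.26 ± 0.22), as arrays of the same genotype lay far apart. Psmd6, a lid subunit, went from 5789 ± 245 to 6923 ± 499.7 (0.26 ± 0.092, adjusted p = 0.0898 with the block), and Psmd12, a further lid subunit, from 3368 ± 48 to 3811 ± 154 (0.18 ± 0.090). Psmd1, a scaffold of the base, went from 1579.7 ± 156 to 1873 ± 78.2 (0.25 ± 0.11) and Psmd3, of the lid, from 1056 ± 118 to 1260.2 ± 73.2 (0.26 ± 0.12). These 4 had no overlap and were not called.

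**Figure D4:**
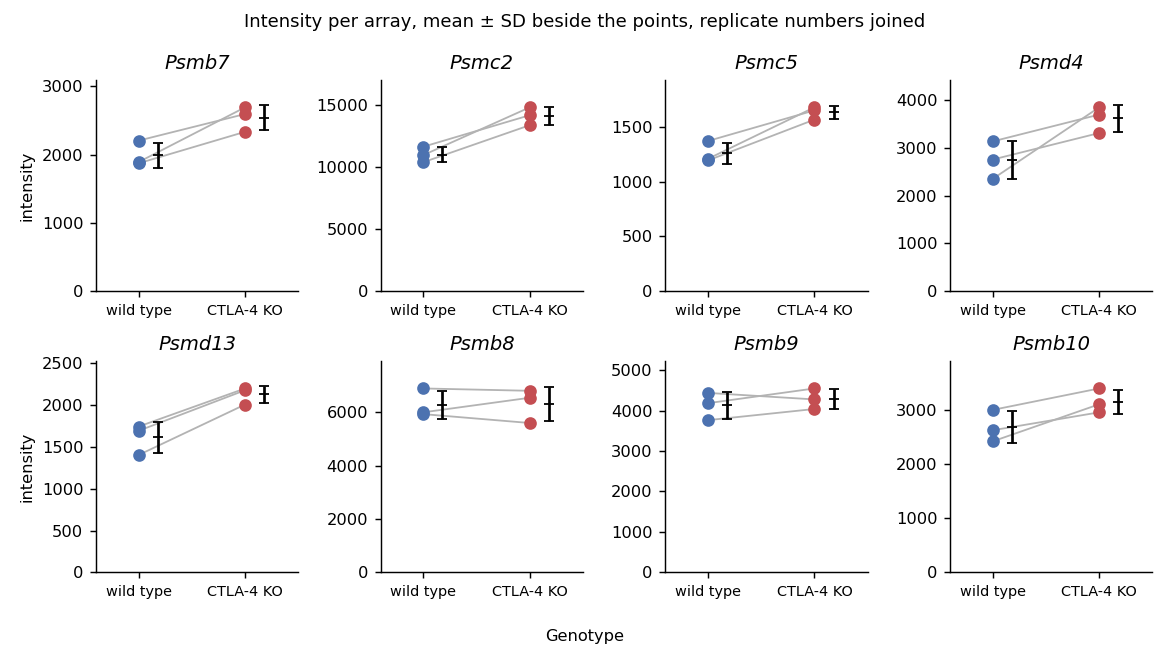
Intensity in each of the 6 arrays of the 5 subunits called with the replicate block and of the 3 inducible catalytic subunits, with mean ± SD (n = 3) beside the points and lines joining replicate numbers. Psmb7, Psmc2, Psmc5, Psmd4 and Psmd13 show no overlap between genotypes, and Psmb8, Psmb9 and Psmb10 do overlap.

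Promoters of 4 of the 5 subunits called with the block are in the RefSeq promoter table (GRCm38.p6), and Psmb7 has no entry there. They are shown because these genes were called together, each as the 250 bases before the start site, 5′ to 3′. Capitals mark matches to an ETS site, a CCAAT box, a GC box or the core of an interferon-stimulated response element, on either strand. Psmc2 lies at chr5:21785025-21785274, plus strand, Psmc5 at chr11:106255935-106256184, plus strand, Psmd4 at chr3:95042615-95042864, minus strand, and Psmd13 at chr7:140882144-140882393, plus strand. Psmc2 has 2 listed starts, and the window with more of the marked motifs is shown. Its other window holds an ETS site and no CCAAT box.
Psmc2: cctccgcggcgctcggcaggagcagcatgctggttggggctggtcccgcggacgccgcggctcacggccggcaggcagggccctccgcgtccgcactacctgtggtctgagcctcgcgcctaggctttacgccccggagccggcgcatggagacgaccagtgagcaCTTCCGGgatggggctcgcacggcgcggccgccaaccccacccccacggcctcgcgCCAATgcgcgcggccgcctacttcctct
Psmc5: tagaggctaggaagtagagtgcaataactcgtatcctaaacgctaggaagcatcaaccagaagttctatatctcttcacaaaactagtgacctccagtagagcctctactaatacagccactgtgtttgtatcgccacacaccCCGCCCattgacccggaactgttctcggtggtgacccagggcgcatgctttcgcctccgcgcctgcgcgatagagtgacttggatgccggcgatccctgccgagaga
Psmd4: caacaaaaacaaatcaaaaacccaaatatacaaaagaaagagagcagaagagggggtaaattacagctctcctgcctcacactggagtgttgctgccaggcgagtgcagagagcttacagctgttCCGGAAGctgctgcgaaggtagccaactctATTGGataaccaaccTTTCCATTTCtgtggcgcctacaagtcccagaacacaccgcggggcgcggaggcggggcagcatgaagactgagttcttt
Psmd13: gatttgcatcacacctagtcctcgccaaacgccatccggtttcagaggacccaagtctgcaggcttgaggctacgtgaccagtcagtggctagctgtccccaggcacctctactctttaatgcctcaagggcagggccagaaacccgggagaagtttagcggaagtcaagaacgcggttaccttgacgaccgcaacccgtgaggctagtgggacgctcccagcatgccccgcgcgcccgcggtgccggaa
In the windows shown, Psmc2 and Psmd4 hold an ETS site and a CCAAT box, Psmd4 also an interferon-stimulated core, Psmc5 a GC box, and Psmd13 none of the motifs marked in capitals. No motif was held by all 4.

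The 4 measured immunoproteasome genes all overlapped between genotypes, and none was called with or without the block. Psmb8, the inducible chymotrypsin-like subunit, read 5928, 5994 and 6889 in wild type against 5594, 6541 and 6801 in CTLA-4 KO. The genotypes overlapped fully, with a log2 difference of 0.0079 ± 0.11 SE (limma adjusted p = 0.981, 0.969 with the replicate block). Psmb9, the inducible counterpart of Psmb6, read 3763, 4182 and 4437 in wild type against 4039, 4547 and 4275 in CTLA-4 KO, with a difference of 0.056 ± 0.10 (adjusted p = 0.831). Psmb10, the counterpart of Psmb7, stood higher, at 2426, 3009.5 and 2632 in wild type against 3114, 3408 and 2965 in CTLA-4 KO. Wild type replicate 2 lay above CTLA-4 KO replicate 3, and the difference of 0.24 ± 0.11 was not called (adjusted p = 0.346, 0.126 with the block). Psme1, a subunit of the activator that interferon induces, read 3805, 4706 and 5299 in wild type against 4451, 5325 and 5222 in CTLA-4 KO. Its wild-type arrays spanned the widest range of the 4 genes, and its difference was 0.13 ± 0.13 (adjusted p = 0.689). The lowest wild-type value of Psmb8, Psmb9, Psmb10 and Psme1 was replicate 1 in each case, and without that array the median of the 4 genes was −0.0057 in place of 0.092. With the Actb ratio as a term it was −0.060.

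Each inducible catalytic subunit was set against the constitutive subunit it displaces, as a log2 ratio within each array relative to the mean ratio of wild type. For Psmb8 to Psmb5 the ratio was −0.060, −0.18 and 0.24 in the wild-type arrays and −0.46, −0.20 and −0.13 in the CTLA-4 KO arrays. It was lower in CTLA-4 KO in all 3 pairs, although the difference in pair 2 was −0.013, and the genotypes overlapped. The difference in mean was −0.26 (SD 0.22 over the wild-type and 0.18 over the CTLA-4 KO arrays, exact permutation test counting both directions, p = 0.2, adjusted over 3 ratios p = 0.5, n = 3 arrays each). For Psmb9 to Psmb6 the difference was −0.12 and for Psmb10 to Psmb7 −0.12, with overlap and an exact permutation p = 0.5 for each. Both were lower in 2 of 3 pairs. Arrays in 2 groups of 3 cannot give an exact p below 0.1, and sign flips of the pairs none below 0.25, which was the value for Psmb8 to Psmb5. These tests could not have passed 0.05 and say nothing on whether the ratios shifted.

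**Figure D5:**
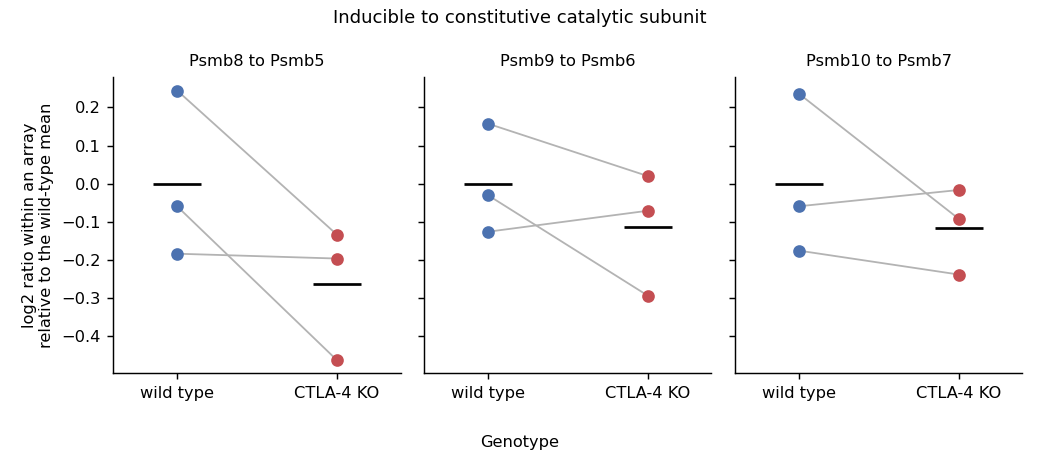
Log2 ratio of each inducible catalytic subunit to the constitutive subunit that it displaces, in each array, relative to the wild-type mean. Bars mark group means, and lines join replicate numbers. The genotypes overlap in all 3 ratios, and the mean is −0.26 in CTLA-4 KO for Psmb8 to Psmb5.

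The promoters of Psmb5 and Psmb8 are given as 1 example. The windows of Psmb9 and Psmb10 lacked the motif that is marked in Psmb8. Both are given as the 250 bases before the RefSeq start, Psmb5 at chr14:54617996-54618245, minus strand and Psmb8 at chr17:34197945-34198194, plus strand (GRCm38.p6). Capitals mark the core of an antioxidant response element, TGACNNNGC, in Psmb5, and of a gamma-activated site, TTCNNNGAA, in Psmb8.
Psmb5: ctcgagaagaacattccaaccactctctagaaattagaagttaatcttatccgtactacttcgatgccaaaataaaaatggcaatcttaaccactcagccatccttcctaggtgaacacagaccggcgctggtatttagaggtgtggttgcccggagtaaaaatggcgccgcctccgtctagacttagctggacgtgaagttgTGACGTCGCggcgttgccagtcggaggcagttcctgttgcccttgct
Psmb8: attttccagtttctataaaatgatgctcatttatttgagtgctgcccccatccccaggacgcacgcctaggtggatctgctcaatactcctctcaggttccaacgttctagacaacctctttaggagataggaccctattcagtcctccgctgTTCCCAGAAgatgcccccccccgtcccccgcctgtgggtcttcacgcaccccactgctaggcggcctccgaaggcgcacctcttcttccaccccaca
The antioxidant element is read by the factors Nfe2l1 and Nfe2l2, which control proteasome genes, and the gamma-activated site by STAT dimers. A match of letters is a description, not proof of a site in use.

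Over the members, 30 of 36 matched the promoter table, and 9 motifs were searched on both strands of the same 250 bases, counting a gene when any of its listed windows held a match. The ETS site CCGGAAG was held by 10 of 30 members (33.3%) against 7.83% of all genes, and its genes were Psma6, Psmc1, Psmc2, Psmc6, Psmd11, Psmd12, Psmd2, Psmd4, Psmd6 and Psme3. The GC box GGGCGG was held by 16 of 30 members (53.3%) against 35.4% of all genes, and the CCAAT box CCAAT by 12 of 30 members (40%) against 37.5% of all genes. The antioxidant response element core TGACNNNGC was held by 4 of 30 members (13.3%) against 11.5% of all genes, namely Psmb5, Psmb6, Psmc6 and Psmd12. The interferon-stimulated core, GAAA repeated after a spacer of 2 bases, was in 2 of 30 members (6.67%) against 3.46% of all genes, namely Psmb3 and Psmd4. The gamma-activated core TTCNNNGAA was in 1 of 30 members (3.33%) against 8.13% of all genes, namely Psmb8. The loose kappaB core, GGG and CC around 5 bases, was in 18 of 30 members (60%) against 48.7% of all genes, the NRF1 site in 1 of 30 members (3.33%) against 0.877% of all genes and the YY1 site in 0 of 30 members (0%) against 0.359% of all genes. These motifs can overlap one another, and the shares were not tested.

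Psme3, a nuclear activator of the core that works without ubiquitin, read 1317, 1232 and 1135 in wild type against 1546, 1398 and 1463 in CTLA-4 KO. No overlap was seen, and the log2 difference of 0.26 ± 0.11 SE was not called (limma adjusted p = 0.305, 0.126 with the replicate block). Its second kept probe set, which was dimmer, had a difference of 0.55 (adjusted p = 0.161, 0.0389 with the block).

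Further probe sets read some of the same genes. Of 74 probe sets that map to 1 subunit, 39 were not the brightest of their gene, and 33 of these were bright enough to be tested. Their median difference was 0.15, with 21 positive and 12 negative. None was called without the block and 4 with it, all higher, in Psmb3 (0.42), Psmd11 (0.33), Psmd13 (0.37) and Psme3. Over all genes, counted by 1 probe set each, 50.2% were positive and the blocked fit called 5.49% as higher. The shares over all probe sets were not determined. The remaining probe sets of Psmd13 had 0.16 and −0.033. The most negative were dim, with −0.56 for Psmd4 at a wild-type mean of 133 and −0.24 for Psma6 at 328. Brighter ones also went against their gene, at −0.067 for Psma7 (wild-type mean 2685), −0.080 for Psmc6 (1933) and −0.078 for Psma6 (919). Psmc2, called with the block, had a second bright probe set with 0.29 (adjusted p = 0.0623 with the block) and a dim one with −0.045. The second probe set of Psmb8 had 0.22, against 0.0079 for the brighter one, and was not called.

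Other genes of the pathway were taken from lists of further proteasome genes, assembly factors, shuttles, regulators and antigen processing. The further proteasome genes were a mixed list of subunits, activators and other factors. Of these, 7 of 10 were tested and none was called in either fit, without or with the block. Psmd8, a lid subunit, read 3218, 3500.3 and 2732 in wild type against 3672, 4039 and 3654 in CTLA-4 KO, with no overlap and a log2 difference of 0.27 ± 0.11 (limma adjusted p = 0.278). Sem1, a small lid subunit, had 0.18 ± 0.12 and Psme4, a further activator, 0.094 ± 0.10. The other 4 lay near 0, with Psmd9 at 0.060 ± 0.17, Psmf1 at 0.028 ± 0.12, Psmd10 at 0.028 ± 0.15 and Psmd5 at 0.00039 ± 0.12. The median of the 7 was 0.060, which is not a median of subunits alone. The tissue-restricted subunits Psma8, of the testis, and Psmb11, of the thymic cortex, were near background, at no more than 30.7 and 46.1 in any array.

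Of 5 tested assembly chaperones, which build the core, none was called without the block and Psmg1 was higher with it (1398, 1338 and 1463 in wild type against 1672, 2051 and 1730.3 in CTLA-4 KO, difference 0.37 ± 0.12, adjusted p = 0.159, 0.0455 with the block). Its groups did not overlap. Pomp, the maturation factor that newly built cores degrade, read 2404, 2595 and 3263 in wild type against 2988, 3356 and 3201 in CTLA-4 KO and overlapped (difference 0.22 ± 0.12), and Psmg2 had 0.17 ± 0.12, Psmg4 0.24 ± 0.18 and Psmg3 −0.054 ± 0.14. Thus 4 of the 5 differences were positive. For this list and the next, the shares over all genes were 50.2% positive and 5.49% called higher with the block. Over the bright genes they were 56.9% and 7.21%. Of 9 tested deubiquitinases and ubiquitin shuttles, Rad23b, which carries substrates to the proteasome, was higher with the block, with 2096, 1921 and 2022 in wild type against 2683, 2493 and 2674 in CTLA-4 KO. It showed no overlap, with a log2 difference of 0.38 ± 0.10 (limma adjusted p = 0.1, 0.0202 with the replicate block). All 9 had positive differences, and Vcp, the segregase that pulls substrates out of complexes (0.26 ± 0.10), and Uchl5, a deubiquitinase of the regulatory particle (0.27 ± 0.12), did not pass in either fit. Uba6, an E1 enzyme and the 1 gene of 6 measured in the ubiquitin list, had 0.11 ± 0.10.

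The regulators of proteasome genes were not called. Nfe2l1, the factor that restores subunit expression when the proteasome is impaired, read 431, 372 and 350.5 in wild type against 369.7, 406 and 338 in CTLA-4 KO, with overlap and a difference of −0.047 ± 0.15 (limma adjusted p = 0.916). Nfe2l2 had 0.15 ± 0.10 and Ngly1, which processes Nfe2l1, 0.082 ± 0.10. None of the 11 MHC class I antigen processing genes was called with or without the block, and their median difference was 0.011. Tap1, the peptide transporter gene next to Psmb9, read 2304, 2575 and 2661 in wild type against 2482, 2570.3 and 2518 in CTLA-4 KO, and like Psmb9 its genotypes overlapped (difference 0.0082 ± 0.10). The 3 with the smallest p were Canx (0.29 ± 0.085) and Pdia3 (0.24 ± 0.13), chaperones of the endoplasmic reticulum, and Tapbp (−0.19 ± 0.080), which loads peptide.

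Interferon-stimulated genes mostly had negative differences, as 2 of 13 tested genes had a positive difference, against 50.2% of all genes. The median of the 13 was −0.24. Ifih1, an RNA sensor, fell (6534, 6086 and 5190.0 in wild type against 4432, 3959 and 3407 in CTLA-4 KO, difference −0.59 ± 0.12, limma adjusted p = 0.0496, 0.00135 with the block). With the block Ifit3, Usp18 and Xaf1 fell as well, so 4 of 13 were called lower with it, against 3.47% of all genes. Xaf1 read 1526, 935 and 1629 in wild type against 941, 869 and 637 in CTLA-4 KO. Its genotypes overlapped, and its other kept probe set had a positive difference. Ifit3 read 436, 528 and 495 in wild type against 292, 379 and 316 in CTLA-4 KO, with no overlap and a difference of −0.55 ± 0.16 (limma adjusted p = 0.126, 0.0223 with the block). Irf1, a factor that drives immunoproteasome genes, read 3936, 4237 and 4093 in wild type against 3578, 3608 and 3745 in CTLA-4 KO. All CTLA-4 KO arrays were lower, but the difference of −0.17 ± 0.089 was not called (adjusted p = 0.412).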

How the data were processed

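RNA of sorted T cells was hybridised to 6 Affymetrix arrays, 3 per genotype, grouped by title. The authors deposited 1 linear intensity per probe set and array, with Partek and MAS5 named in the submitters' processing notes without versions. The 2% trimmed mean of every array was 500.003, and how faint signals were treated is a step not given in the sources used here.

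Values became log2(intensity + 16). Of 45101 probe sets, 64 controls were left out, and the 27022 whose mean log2 value reached the 40th percentile (35.4 in intensity) were fitted with limma 3.58.1 (R 4.3.3, lmFit, eBayes with intensity trend), with Benjamini-Hochberg adjustment over all of them at 0.05. The code was tested on simulated data. Symbols came from the array annotation, which names 1 gene for 34958 probe sets, several for 932 and none for 9211, updated through RefSeq (34754 matched).

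Between arrays of the same replicate number, deviations from the genotype means had correlations of 0.371, 0.240 and 0.254, so the numbers, from the titles, were taken to pair the arrays. The main fit had no block. Named were subunits called in either fit, catalytic and immunoproteasome subunits, the extremes of each subgroup, and up to 3 genes with the smallest p, or those called, of each pathway list. Other subunits described were picked with their values in view. The members and lists were chosen with earlier results of these data known. Alternatives were the filter, pseudocount, normalization, trend, array weights, block, donor sex (read from Xist), Actb ratio, choice of probe set and leaving out each array.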

Additional observations from a re-analysis of the deposited data

How the results depend on the processing

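The count of called subunits was 0 in 12 of 13 alternatives and whichever array was left out, and 5 with the replicate block. Where it was 0, these fits called between 0.0334% and 2.24% of all genes as higher. The core median was 0.16 and moved to 0.22 under median centring, which shifted the median of all genes to 0.060, and to 0.11 under quantile normalization (0.12 to 0.19 without 1 array). The regulatory particle median stayed between 0.21 and 0.31 (0.22 to 0.28 without 1 array). The immunoproteasome median, 0.092, turned to −0.060 with the Actb ratio as a term and ran from −0.0057 to 0.17 without 1 array. The ratio of Psmb8 to Psmb5 was −0.36 to −0.14 without 1 array, that of Psmb9 to Psmb6 −0.18 to −0.026, and that of Psmb10 to Psmb7 −0.20 to 0.0018, positive without wild type replicate 2. Positive differences numbered 33 of 35 on averaged probe sets (47.5% of all genes) and 34 under quantile normalization (53.7% of all genes). They numbered 26 of 30 without _x_at, _s_at and _a_at probe sets (48.2% of all genes). Without 1 array they numbered 31 to 35, lowest without wild type replicate 1 (47.3% of all genes). The replicate block changed no call of a subunit beyond these 5. The cause was not tested.

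Of 339 values of the 18 named subunits under the alternatives, 16 changed sign, none of them called. Psmb8 had −0.042 under quantile normalization, −0.11 with the Actb term, and −0.048 to 0.092 without 1 array, negative without CTLA-4 KO replicate 2 (−0.020) or 3 (−0.048) and without wild type replicate 1 (−0.031) or 2 (−0.023). Psmb9 and Psme1 had −0.060 and −0.059 with the Actb term, and ran from −0.0086 to 0.11 and from −0.0028 to 0.24 without 1 array, lowest without wild type replicate 1. Psma7 had −0.013 with the mean of its probe sets, −0.018 with the Actb term, −0.067 on its other probe set and −0.020 to 0.10 without 1 array, lowest without CTLA-4 KO replicate 2. Psma5 had −0.067 on its probe set without an _a_at ending, which is dim, and Psmc6 −0.0057 to 0.21 without 1 array, lowest without CTLA-4 KO replicate 1.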
